A study of Mus musculus with 3 samples.

Results

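A set of 10 imprinted mouse genes, among them Ube3a, was followed through a map of 5-hydroxymethylcytosine (5hmC) in cerebellar DNA. The genes were Ube3a, Snrpn, Ndn, Magel2, Atp10a, Igf2r, Grb10, Peg3, Kcnq1 and Impact, chosen by symbol and matched to the RefSeq annotation of GRCm38.p6. All 10 were found, out of 21887 protein-coding genes with at least 1 bin in the table. Their bodies overlapped 142 of the 264399 deposited bins of 10 kb, and each of these bins had a value in every library. Ube3a, Snrpn, Ndn, Magel2 and Atp10a lie in one imprinted domain of chromosome 7, so they are not independent of each other. Peg3 and Kcnq1 lie elsewhere on chromosome 7, Grb10 on chromosome 11, Igf2r on chromosome 17 and Impact on chromosome 18.

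The study compared 3 libraries of mouse cerebellum, with 1 library per group. The DDD-seq control came from normal tissue and the DDD-seq sleep-deprived library from tissue after chronic sleep deprivation. The third library, the ACE-seq control, came from tissue that is also labelled normal or control, and its labels carry the same protocol text as those of the DDD-seq libraries. As described there, a sugar is put on 5hmC and other cytosines are deaminated, so that the cytosines left over are read as 5hmC. The sources used here do not give strain, genotype, age, sex, the number of animals or the length of the deprivation. The level used throughout is the deposited fraction of a bin times 100, in percent, and the level of a gene is the mean over the bins it overlaps by at least 1 bp. The standard error (SE) is taken over those bins and measures scatter inside a gene, not between animals. No test between groups could be made with 1 library each. RNA was not measured, so the tissue could not be checked against expressed marker genes. The table does not separate the parental alleles or the cell types, so imprinting itself was not measured, and a change in cell makeup and a change in 5hmC per cell cannot be told apart. The autosomal bins had a median level of 1.38% in both DDD-seq libraries and 1.34% in the ACE-seq control, with 99th percentiles of 4.91%, 4.90% and 4.84% in the order DDD-seq control, sleep-deprived and ACE-seq control. That order is kept wherever 3 values are given together.

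Imprinted genes are expressed only or mainly from the maternal or the paternal copy, in some or all tissues. This is under control of regions whose DNA methylation is set in the germ line. 5hmC is made from 5-methylcytosine by TET enzymes and is abundant in neurons, where it tends to lie in the bodies of transcribed genes. Ube3a encodes a ubiquitin ligase whose loss causes Angelman syndrome. In neurons its paternal copy is silenced by the far end of Snhg14, a long noncoding transcript that starts near Snrpn and runs against Ube3a.

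The sequences before 5 annotated start sites are shown, since cytosines followed by guanine are the main place of 5hmC. Those of Ube3a and Snurf-Snrpn stand where the deposited level changed sharply, that of Igf2r belongs to the gene next to Ube3a in level, and the 2 upstream windows of Snrpn show near copies. Each line holds the 250 bases before the start, 5′ to 3′ on the strand of the gene, from RefSeq (GRCm38.p6), with every CG in capitals. The windows are chr7:59228500-59228749 (+ strand) for Ube3a, chr17:12769707-12769956 (- strand) for Igf2r, and, all on the - strand, chr7:60005200-60005449, chr7:60047979-60048228 and chr7:60140226-60140475 for 3 starts of Snrpn.
Ube3a: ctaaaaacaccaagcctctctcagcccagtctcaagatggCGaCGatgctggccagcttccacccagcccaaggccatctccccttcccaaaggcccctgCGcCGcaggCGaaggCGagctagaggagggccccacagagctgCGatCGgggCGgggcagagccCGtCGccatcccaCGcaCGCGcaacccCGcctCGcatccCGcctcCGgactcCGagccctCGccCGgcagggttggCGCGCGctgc
Igf2r: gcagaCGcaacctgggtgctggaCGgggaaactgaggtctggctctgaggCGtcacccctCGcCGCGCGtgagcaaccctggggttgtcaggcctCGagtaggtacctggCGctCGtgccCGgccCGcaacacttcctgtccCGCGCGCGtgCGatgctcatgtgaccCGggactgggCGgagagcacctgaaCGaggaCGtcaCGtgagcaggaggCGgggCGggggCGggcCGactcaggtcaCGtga
Snrpn, the start shared with Snurf: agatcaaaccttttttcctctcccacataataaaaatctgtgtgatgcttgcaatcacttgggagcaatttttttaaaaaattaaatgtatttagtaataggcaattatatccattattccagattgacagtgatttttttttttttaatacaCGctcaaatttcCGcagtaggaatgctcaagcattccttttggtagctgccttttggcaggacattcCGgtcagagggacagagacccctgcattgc
Snrpn, an upstream start: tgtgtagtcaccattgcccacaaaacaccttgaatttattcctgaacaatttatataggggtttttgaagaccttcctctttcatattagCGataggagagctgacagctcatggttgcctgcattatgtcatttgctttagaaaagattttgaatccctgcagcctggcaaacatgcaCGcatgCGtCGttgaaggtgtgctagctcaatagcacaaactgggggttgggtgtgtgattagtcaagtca
Snrpn, a further upstream start: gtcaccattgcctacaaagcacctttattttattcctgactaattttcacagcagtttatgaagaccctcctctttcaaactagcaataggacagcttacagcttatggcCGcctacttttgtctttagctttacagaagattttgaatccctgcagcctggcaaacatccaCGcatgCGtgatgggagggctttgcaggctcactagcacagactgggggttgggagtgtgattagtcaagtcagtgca

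The motif CG reads the same on both strands. It occurred 24 times in the Ube3a window and 27 times in that of Igf2r, more often than in 88.0% and 91.4% of the 32851 annotated mouse start windows. The windows of Snrpn held 3, 4 and 3, where 92.1% of all windows held at least 1 and the median was 6. The 2 upstream windows of Snrpn printed here were near copies of each other, with 205 identical bases in 257 aligned positions (79.8%), against 48.1% and 50.7% identity with the window shared with Snurf. A 4th annotated start, 250 bases of which are not printed, had 77.9% and 77.1% identity with the same upstream pair. For 8 of the 10 genes at least 1 start window was found, and Kcnq1 and Impact had none.

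Ube3a stood apart from the other 9 genes in each library. Its level was 5.49% ± 0.82 (SE over 10 bins), 5.48% ± 1.15 and 4.95% ± 0.76. The other 9 genes had levels between 1.196% and 1.74%, between 0.98% and 1.82%, and between 0.69% and 1.96%. The lowest of the 3 values of Ube3a was thus above every value of the other genes. Igf2r came next in each library, and Ube3a exceeded it by 3.16, 3.01 and 2.53 times.

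**Figure D1:**
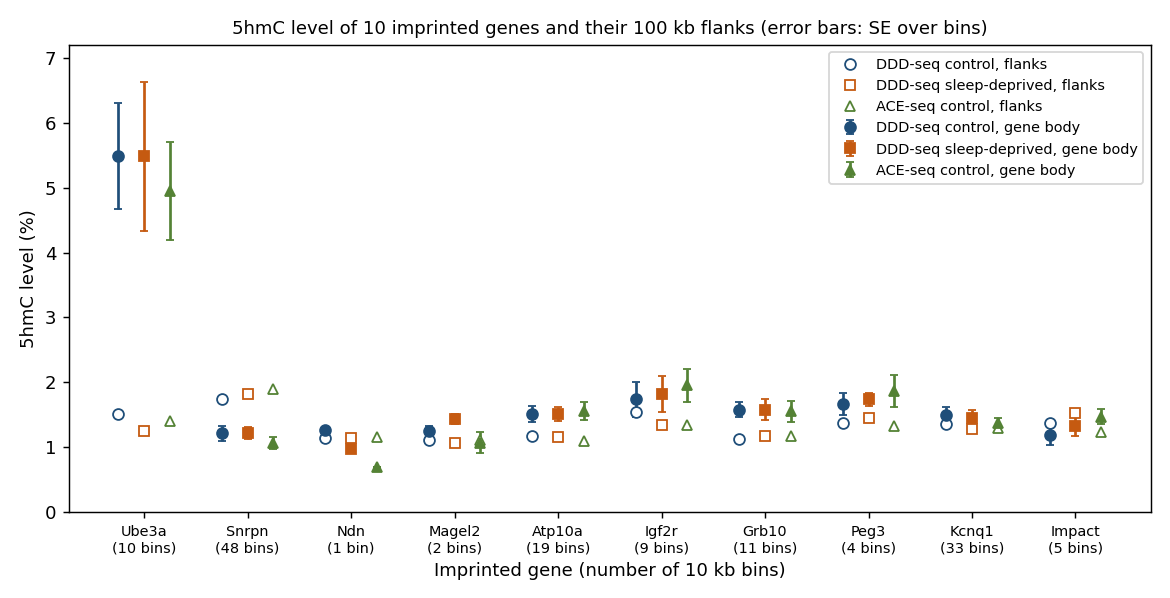
5hmC level in percent (y axis) of the 10 imprinted genes (x axis) in 3 libraries, as the mean over the bins of the gene body (filled, error bars are the SE over bins) and over flanks of 100 kb on each side (open). Ube3a sits at 5.49%, 5.48% and 4.95%, and the other 9 gene bodies lie at or below 1.96%.

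The bins around Ube3a were far lower than the gene. The 10 bins on each side had a mean of 1.51%, 1.25% and 1.41%, which gives body to flank ratios of 3.64, 4.38 and 3.50. A ratio of 1.5 was used to call a gene raised over its flanks. Ube3a passed it in every library, and none of the other 9 genes did in any with these flanks. Among all protein-coding genes, 10.1%, 8.91% and 10.5% passed it, so 1 gene in 10 is close to the background share. With flank bins free of protein-coding genes the count became 3, 2 and 2. Peg3 was added in each library (1.73, 1.64 and 1.81, over 7 flank bins) and Grb10 in the DDD-seq control (1.54, over 13 flank bins). Genes of the length of Ube3a pass more often: of those with 8 to 12 bins, 20.3%, 18.7% and 19.97% did. Within these 1839 genes, 5, 4 and 6 had a higher level than Ube3a, and 3, 1 and 7 had a higher ratio. The median gene of that size had a level of 1.59%, 1.56% and 1.53% and a ratio of 1.10, 1.09 and 1.10.

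**Figure D2:**
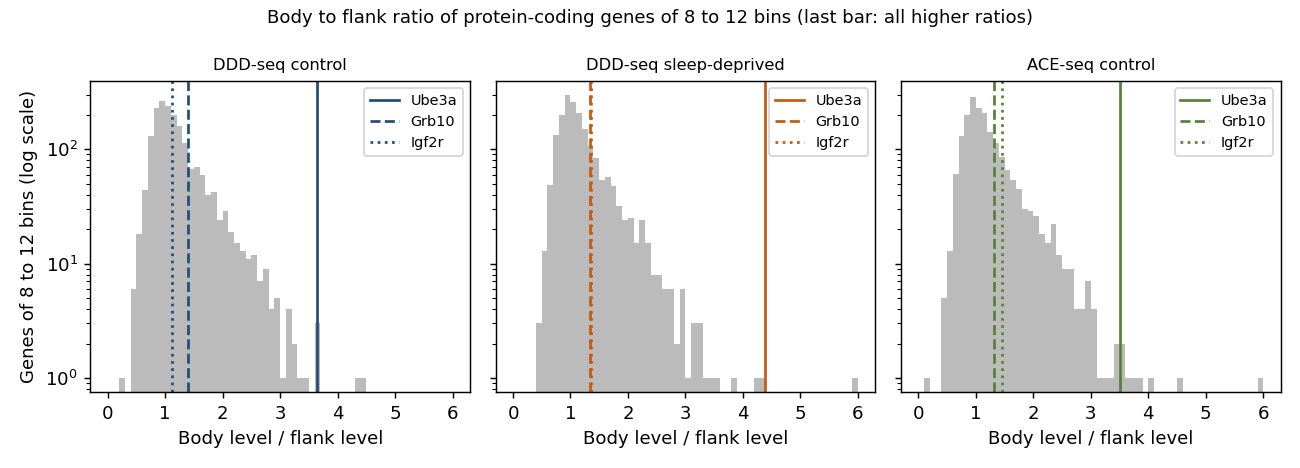
Number of protein-coding genes of 8 to 12 bins (y axis, log scale) by the ratio of body to flank level (x axis) in each library, with lines for Ube3a, Grb10 and Igf2r. Ube3a lies at 3.64, 4.38 and 3.50, in the far right tail, whereas Grb10 and Igf2r lie between 1.12 and 1.46.

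Along Ube3a the level rose within 1 bin of the start and fell unevenly towards the end. The gene spans chr7:59228750-59310837 on the + strand. The bin with the start site holds 1251 bp of the gene and the CG-rich window shown above, and its level was 1.48%, 1.11% and 1.27%. The next bin, wholly inside the gene, had 7.60%, 6.17% and 7.21%. The step between these neighbouring bins was seen in each library, and the 3 bins before the start site bin had means of 1.16%, 1.07% and 1.71%.

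The highest bin of Ube3a was not the same in every library. In the sleep-deprived library and the ACE-seq control it was the bin centred 16 kb after the start, with 13.7% and 9.33%, where the DDD-seq control had 7.69%. In the DDD-seq control the highest was the bin centred 46 kb after the start, with 9.10%, against 6.51% and 5.07%. The bin at 36 kb had 3.28%, 6.23% and 4.84%, and that at 66 kb had 5.24%, 1.49% and 3.85%. Single bins of the gene therefore differed between libraries by up to 6.001 percentage points although the means were close. Across the 10 bins, Pearson's r was 0.58 between the DDD-seq libraries, 0.59 between the control libraries and 0.87 between the sleep-deprived and ACE-seq libraries. These are descriptions, since the bins share their gene and libraries.

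The raised level reached 1 bin past the annotated end. The last bin of the gene, with 837 bp inside, had 3.83%, 2.40% and 3.58%, and the bin after it (chr7:59320001-59330000), annotated with Snhg14 only, had 5.17%, 2.74% and 4.33%. The 9 bins that follow had means of 1.27% ± 0.13, 1.33% ± 0.07 and 1.22% ± 0.15. Of the 10 bins of Ube3a, 6, 6 and 4 lay above the 99th percentile of autosomal bins. None of the 132 bins of the other 9 genes did in any library. By definition 1% of autosomal bins lie above that percentile, so 0 of 132 is close to the usual share. Above the 95th percentile lay 3.03%, 3.03% and 2.27% of the 132 bins.

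**Figure D3:**
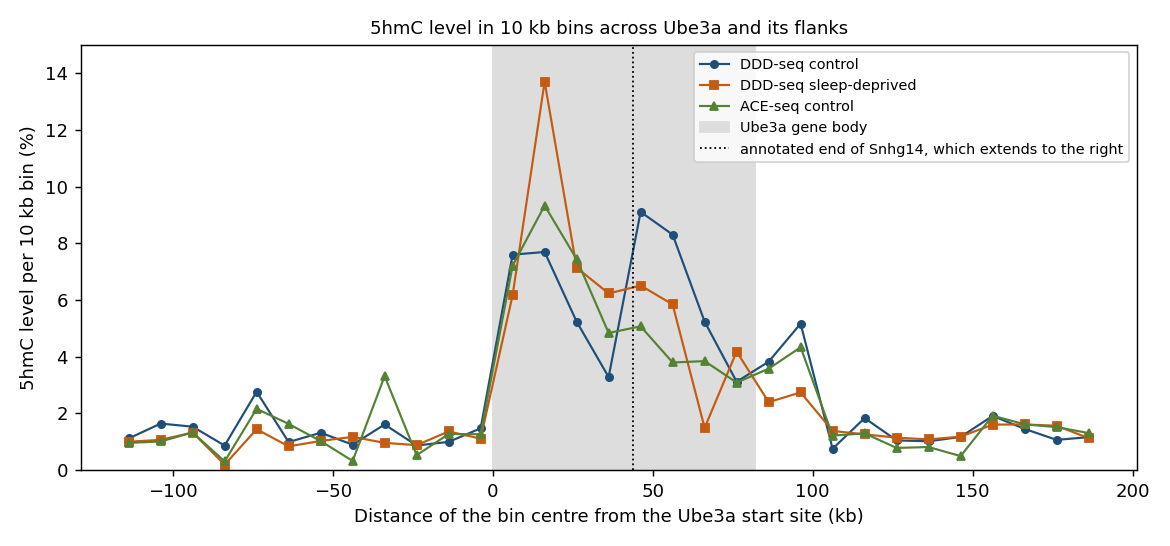
5hmC level per 10 kb bin in percent (y axis) by distance of the bin centre from the Ube3a start site in kb (x axis) in 3 libraries, with the gene body shaded and the annotated end of Snhg14 dotted. The level steps from at most 1.48% in the start site bin to at least 6.17% in the next one, and returns to flank level beyond the bin that follows the gene.

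The part of Ube3a that Snhg14 overlaps was compared with the part it does not, by the RefSeq ends. The 5 bins outside Snhg14, which include the start site bin, had 5.06% ± 1.21, 6.87% ± 2.01 and 6.02% ± 1.38. The 5 bins inside it had 5.92% ± 1.19, 4.09% ± 0.96 and 3.88% ± 0.33. The overlapped part was the higher in the DDD-seq control and the lower in the other libraries. In the sleep-deprived library its bins lay at 1.49% to 6.51%, within the 1.11% to 13.7% of the bins outside. In the ACE-seq control they lay at 3.09% to 5.07%, within the 1.27% to 9.33% of those outside. The parts differed by less than the SE of either in the DDD-seq control. In that library the start site bin had 1.48%, against 3.28% to 7.69% in the other bins outside. The order of the parts in the DDD-seq control rests on that bin.

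By a rule of likeness, the protein-coding genes nearest to Ube3a in level over the 3 libraries were sought among 1838 genes with a bin number within 2 of its own. Among the nearest were Arhgap5, Cul3, Pkia and Cnot2. Arhgap5, which encodes a GTPase-activating protein, was the nearest, with 5.96%, 5.30% and 5.35%. Cul3, a cullin scaffold gene, had 5.43%, 5.30% and 5.94%. Pkia, which encodes an inhibitor of protein kinase A, had 5.25%, 4.603% and 4.63%, and Cnot2, a subunit gene of the CCR4-NOT complex, had 5.01%, 4.71% and 5.30%. These 4 genes had flanks at or below 2.02% in each library, where those of Ube3a were at or below 1.51%, and ratios between 2.33 and 4.33. They were picked by their level, so high ratios follow in part from the choice. Likeness here rests on 3 values per gene.

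Snrpn, which encodes a protein of the splicing machinery and shares its transcript with Snurf, had a low level over its long RefSeq body. The body spans chr7:59982495-60450177 on the - strand because it includes far upstream starts. Over 48 bins the level was 1.22% ± 0.12, 1.22% ± 0.10 and 1.07% ± 0.09, and the body to flank ratios were 0.70, 0.67 and 0.56. Among 218 genes of like size (a bin number within 20%), 4.59%, 2.75% and 1.38% had a lower level. This mean joins unlike parts. The division at Snurf described next was made after the values were seen.

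The 3 bins at Snurf, had 2.78% ± 1.06, 2.34% ± 0.94 and 2.48% ± 0.72, whereas the 45 bins of the upstream part had 1.12% ± 0.09, 1.15% ± 0.08 and 0.98% ± 0.07. Within the Snurf bins the level fell sharply at the start. The bin before it in coordinate, chr7:59990001-60000000, had 4.12%, 4.10% and 3.66%. The bin with the shared start of Snurf and Snrpn, chr7:60000001-60010000, had 0.70%, 0.87% and 1.16%, and the next one 0.65%, 0.98% and 1.06%. The fall from the bin before the start to the bin with the start was seen in each library. The order of the start bin and the next one was not the same in each.

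The high bins at Snurf were the edge of a longer stretch. The 8 bins of chr7:59920001-60000000, which lie downstream of the shared start and in Snhg14, had means of 3.16% ± 0.27, 3.09% ± 0.31 and 3.40% ± 0.81. Of these bins, 5, 5 and 3 lay above the 95th percentile of autosomal bins, which was 3.09%, 3.03% and 3.01%. The ACE-seq mean leans on the bin with Snord64, which had 8.81% there against 2.73% and 3.25% by DDD-seq. This stretch is also the flank of Snrpn on that side, with 2.37%, 2.48% and 2.70% over 100 kb. The opposite flank had 1.11%, 1.15% and 1.11%, and against it alone the ratio of Snrpn was 1.10, 1.06 and 0.97.

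Between the stretch at Snurf and Ube3a, Snhg14 was near the genome's usual level. Over its 66 bins between Ube3a and Snrpn, 62 had a value in each library, and the means were 1.60% ± 0.11, 1.55% ± 0.09 and 1.50% ± 0.16, the stretch and the bin after Ube3a included. In windows of 10 bins, the 5 that lie between the first window after Ube3a and the stretch at Snurf had means from 0.90% to 1.81% over all libraries. These bins carry arrays of small nucleolar RNA genes that are near copies of each other, and reads may be divided between such copies.

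**Figure D4:**
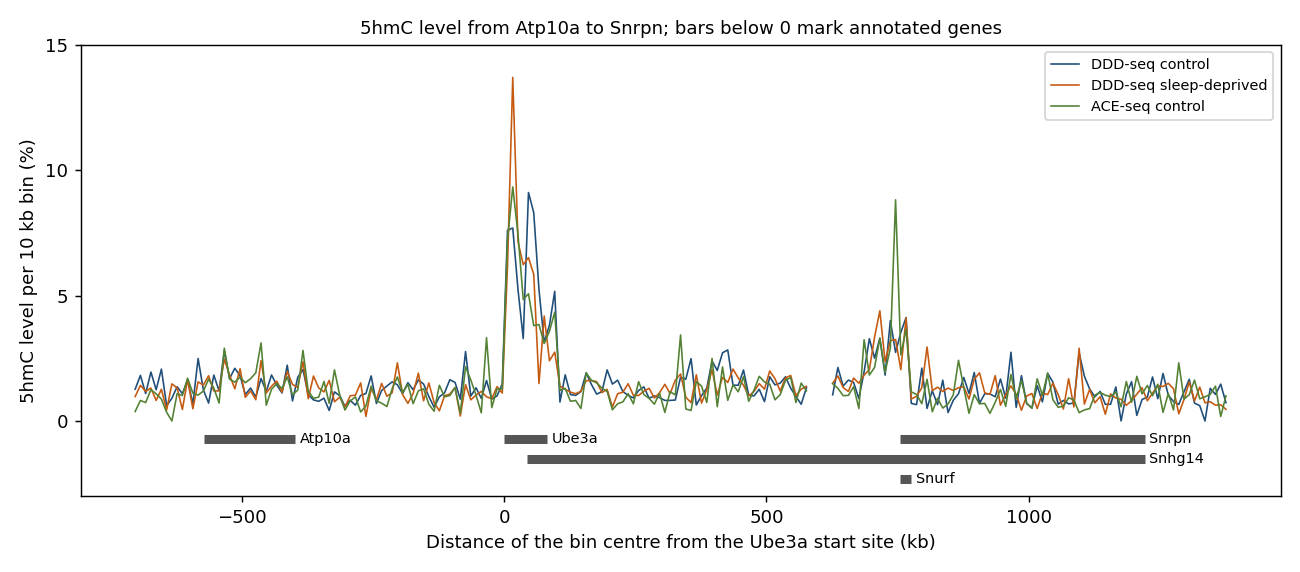
5hmC level per 10 kb bin in percent (y axis) by distance from the Ube3a start site in kb (x axis) in 3 libraries from before Atp10a to after Snrpn, with annotated genes as bars below 0. Peaks stand at Ube3a and, lower, at Snurf and the stretch of Snhg14 beside it, and a gap marks bins without a value.

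Ndn and Magel2, single-exon genes of the MAGE family that are expressed from the paternal copy, were near the level of their flanks. Ndn (chr7:62348277-62349928) lies in 1 bin, with 1.27%, 0.98% and 0.69%, and its flanks had 1.15%, 1.14% and 1.16%. Magel2 (chr7:62376979-62381640) overlaps 2 bins, with 1.17%, 1.51% and 0.91% in the first and 1.33%, 1.37% and 1.23% in the other. Its flanks had 1.12%, 1.06% and 1.12%, and each of the 2 genes lies in a flank of the other. Their ratios ranged from 0.595 for Ndn in the ACE-seq control to 1.35 for Magel2 in the sleep-deprived library.

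Atp10a, a lipid flippase gene next to Ube3a in the domain (chr7:58656142-58830244), had 1.51% ± 0.12, 1.51% ± 0.11 and 1.56% ± 0.14 over 19 bins. The range over libraries was 0.053 percentage points. Its ratios were 1.28, 1.30 and 1.42. Ube3a and Atp10a thus differed more than 3-fold in level in each library.

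Igf2r, a receptor gene for mannose-6-phosphate and insulin-like growth factor 2 (chr17:12682406-12769706), had 1.74% ± 0.27, 1.82% ± 0.27 and 1.96% ± 0.26 over 9 bins, with ratios of 1.12, 1.36 and 1.46. Its highest bin was chr17:12750001-12760000, with 3.35%, 3.61% and 3.51%, above the 95th autosomal percentile in each library. That bin lies in the part that Airn, the antisense noncoding RNA of the locus, overlaps. The 3 bins inside Airn had 2.52% ± 0.42, 2.24% ± 0.69 and 2.41% ± 0.56. The other 6 bins had 1.35% ± 0.23, 1.61% ± 0.23 and 1.73% ± 0.26, and the 9 bins of Airn beyond Igf2r had 1.49%, 1.46% and 1.41%. The start site bin of Igf2r had 2.11%, 1.75% and 2.06%.

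Kcnq1, a potassium channel gene (chr7:143106877-143427050), had 1.50% ± 0.12, 1.46% ± 0.11 and 1.37% ± 0.08 over 33 bins, with ratios of 1.10, 1.13 and 1.06. The 9 bins that overlap Kcnq1ot1, the antisense noncoding RNA inside the gene, had 2.10% ± 0.35, 1.88% ± 0.32 and 1.77% ± 0.16, and the other 24 had 1.27% ± 0.058, 1.30% ± 0.085 and 1.22% ± 0.071. The highest bin was chr7:143240001-143250000, with 4.59%, 3.69% and 2.54%. At both Igf2r and Kcnq1 the mean of the overlapped part was the higher in each library. At Igf2r this rests on its highest bin: without it the other 2 bins inside Airn had 2.10%, 1.56% and 1.87%, which in the sleep-deprived library is below the 1.61% outside. At Kcnq1 the 8 bins inside Kcnq1ot1 that remain without the highest had 1.79%, 1.65% and 1.68%, above the part outside in each library.

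**Figure D5:**
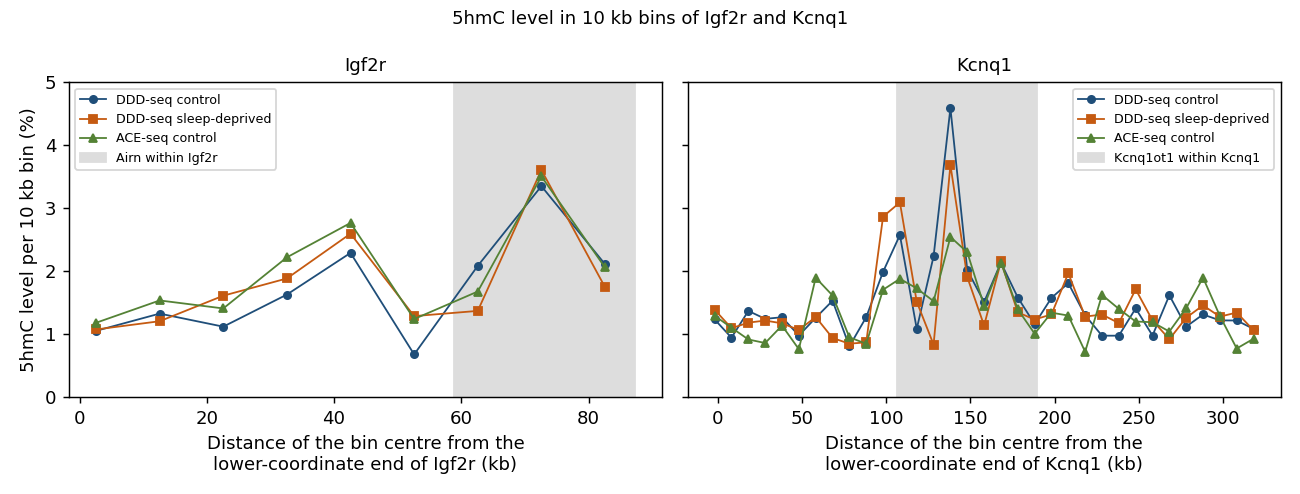
5hmC level per 10 kb bin in percent (y axis) along Igf2r and Kcnq1 (x axis, distance in kb from the end with the lower coordinate) in 3 libraries, with the part that Airn or Kcnq1ot1 overlaps shaded. The highest bin of each gene, at 3.35% to 3.61% in Igf2r and 2.54% to 4.59% in Kcnq1, lies in the shaded part.

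Grb10, an adaptor gene of insulin and growth factor receptors (chr11:11930499-12037428), had 1.58% ± 0.12, 1.58% ± 0.17 and 1.55% ± 0.16 over 11 bins, with ratios of 1.39, 1.34 and 1.32. Its bins ranged from 1.21% to 2.46%, from 0.97% to 2.76% and from 0.91% to 2.50%, with the highest values in the middle of the gene. Peg3, a zinc finger gene (chr7:6703892-6730462), had 1.67% ± 0.16, 1.74% ± 0.10 and 1.87% ± 0.25 over 4 bins, with ratios of 1.22, 1.19 and 1.40. Its highest bin by ACE-seq, with 2.57%, holds 462 bp of Peg3 and is shared with another protein-coding gene. Without that bin the level of Peg3 was 1.58%, 1.69% and 1.63% over 3 bins. Impact, a regulator of translation (chr18:12954690-12992950), had 1.196% ± 0.165, 1.33% ± 0.15 and 1.47% ± 0.11 over 5 bins, and ratios of 0.87, 0.87 and 1.19. In the DDD-seq control the order after Ube3a was Igf2r, Peg3, Grb10, Atp10a, Kcnq1, Ndn, Magel2, Snrpn and Impact. From Igf2r downwards, neighbours in that order differed by less than the SE of either gene, except for Kcnq1 and Ndn. Ndn has 1 bin and so no SE of its own.

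Other imprinted genes were taken from a list of 57 symbols, of which 56 matched the annotation and 45 are protein-coding. Their median level was 1.32%, 1.34% and 1.30%, against 1.33%, 1.31% and 1.29% for all protein-coding genes. Of the 56, 3, 3 and 0 passed the ratio of 1.5, where 10.1%, 8.91% and 10.5% of all protein-coding genes did. None of the 56 passed in all 3 libraries. Those of the DDD-seq control were Snurf with 1.62, Kcnq1ot1 with 1.63 and Ipw with 1.56. Those of the sleep-deprived library were Ppp1r9a with 1.54, Copg2 with 1.50 and Usp29 with 1.54. Snurf, Snhg14, Airn and Kcnq1ot1 share bins with Snrpn, Ube3a, Igf2r or Kcnq1. Across all protein-coding genes 5.38% passed in all 3. The highest level on the list was that of Snurf in each library, and the lowest was that of the insulin gene Ins2 in the DDD-seq control (0.91%) and that of Zim2 in the other libraries (0.96% and 0.88%).

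Genes beside the domain on chromosome 7 that are not imprinted served as a second list of 9, of which 8 are described. None of these 8 reached a ratio of 1.5 in any library. The remaining gene is not reported here, so this is not a count over the whole list. Gabra5 and Gabrg3, which encode subunits of GABA-A receptors, had 1.40%, 1.44% and 1.33%, and 1.15%, 1.07% and 1.07%. Oca2 had 1.14%, 1.203% and 1.18%, and Herc2 1.75%, 1.81% and 1.59%. Nipa1 had 1.91%, 1.62% and 1.77%, Nipa2 1.59%, 1.58% and 1.69%, Cyfip1 1.72%, 1.55% and 1.55%, and Tubgcp5 1.57%, 1.42% and 1.37%. In each library Ube3a was above all 8.

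The sleep-deprived library was set against the DDD-seq control to ask whether the imprinted genes differed after chronic sleep deprivation. The mean of Ube3a was almost the same, with a difference of -0.01 ± 0.95 percentage points (SE over 10 bins), 4 bins higher and 6 lower. The SE is large because single bins moved by several points in either direction. The difference was 0.77 points between medians over bins and -0.68 points without the bin that differed most, so its sign depends on the summary. Past a fold of 1.2, none of the 10 genes was higher and 1, Ndn, was lower, at 0.77 times the control. Among all protein-coding genes 14.3% were higher and 15.2% lower by that fold, and among genes of 1 to 2 bins 23.5% were lower. The fold thus passed no more often in the 10 genes than elsewhere, and Ndn rests on 1 bin.

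The remaining differences were small. Snrpn, Atp10a and Grb10 differed by -0.00023, -0.0022 and 0.0019 points, with SEs of 0.11, 0.11 and 0.10, and Kcnq1 differed by -0.04 ± 0.07. The sleep-deprived library was higher by 0.08 ± 0.14 points at Igf2r, 0.07 ± 0.22 at Peg3, 0.14 ± 0.20 at Impact and 0.19 ± 0.15 at Magel2. Of the 9 genes with more than 1 bin, Magel2 alone differed by more than 1 SE and none by more than 2, where 16.8% of all protein-coding genes with an SE did.

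The ACE-seq control was set against the DDD-seq control to compare the methods in tissue labelled normal. This comparison shares the DDD-seq control with the one above. Ube3a was lower by ACE-seq, with a difference of -0.54 ± 0.71 points, 3 bins higher and 7 lower. The difference was -0.90 points between medians over bins, a ratio of 0.829 that passes the fold of 1.2, and -0.10 points without the bin that differed most. Past a fold of 1.2, Impact was higher (1.23 times) and Ndn lower (0.54 times), where 13.9% of all protein-coding genes were higher and 20.5% lower. Among genes of 1 to 2 bins 28.3% were lower, and among those of 3 to 7 bins, as Impact, 10.2% were higher. The call of Impact was lost with medians over bins and without its most different bin, and that of Ndn rests on its 1 bin. The difference exceeded 2 SE at Igf2r, with 0.22 ± 0.11 points and 7 of 9 bins higher, and at Magel2, with -0.18 ± 0.08 points and both bins lower. Between medians the difference at Igf2r was 0.048 points, and without the more different of its 2 bins that at Magel2 was -0.094 points. Over all protein-coding genes with an SE, 18.1% lay beyond 2 SE in this comparison.

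The difference was -0.15 ± 0.10 points at Snrpn, -0.13 ± 0.09 at Kcnq1, -0.03 ± 0.13 at Grb10, 0.05 ± 0.14 at Atp10a, 0.20 ± 0.25 at Peg3 and 0.28 ± 0.16 at Impact. The median gene of the 10 differed by -0.08 points, against -0.04 points over all protein-coding genes.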

How the data were processed

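The deposited table, per the file headers, holds a 5hmC fraction for each of 3 libraries in bins of 10 kb. Trimming, Bismark, sorting and merging are named in the column names, and FastQC, Trimmomatic and Bismark in the submitters' processing notes. The sources used here do not say how the authors averaged the fraction, over which cytosines, or at what minimum coverage. The word "all" in both DDD-seq columns may mean pooled runs. The table gives no counts, so depth is unknown, and any unconverted cytosine is included. The processing notes name hg19, but on 21 mouse chromosomes the last bin ended 1.33 to 211.9 kb past the last gene of GRCm38.p6, and bins were read as GRCm38.

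Levels were means over bins that overlap a gene by at least 1 bp. Flanks were the 10 bins on each side. Fold thresholds were 1.5 for body to flank and 1.2 between libraries, and shares passing them were counted over all protein-coding genes. The names of genes in the text follow a list of the 10 genes, of other imprinted genes (highest, lowest and those past 1.5 in all libraries) and of neighbours that are not imprinted, with the genes nearest to Ube3a in level, and the genes past 1.5 in 1 library alone, the split at Snurf and the stretch beside it were added after the values were seen. The 10 genes and the lists were chosen with earlier results of these data known. Some values that these rules select are not reported here. Python 3.11.15, numpy 2.4.6, pandas 2.3.3 and matplotlib 3.10.9 were used, and the ratio was tested on simulated data. Alternatives were other overlap rules, medians, other flanks and thresholds, and leaving out bins at 0, shared bins or the most extreme bin.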

Additional observations from a re-analysis of the deposited data

How the results depend on the processing

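With 1 library per group no replicate could be left out, and the shift of a value was judged against the scatter (SD) between the bins of its gene. The median of a level, or its mean without 1 bin, cannot shift by more than that SD. Those settings could therefore not fail. The level of Ube3a ranged from 5.09% to 6.20%, 4.57% to 6.41% and 4.34% to 5.58% (DDD-seq control, sleep-deprived, ACE-seq control), and its body to flank ratio from 3.31 to 4.61, and it was 4.06, 5.31 and 3.82 without the flank bins in Snhg14, an alternative added after seeing the data. These shifts, and those of its differences between libraries, were smaller than that SD, which for some settings was fixed in advance. Leaving out shared bins, bins at 0 or flank bins with protein-coding genes changed nothing at Ube3a. Its difference between the DDD-seq libraries still changed sign, from -0.01 points to 0.77 points between medians.

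The count of genes at or above a ratio of 1.5 rose from 1 with flank bins free of protein-coding genes, to 3 in the DDD-seq control (Peg3 with 1.73 and Grb10 with 1.54 besides Ube3a), 2 in the sleep-deprived library (Peg3 with 1.64) and 2 in the ACE-seq control (Peg3 with 1.81). In the ACE-seq control it was also 2 with flanks of 50 kb (Peg3 with 1.58) and of 200 kb (Igf2r with 1.54). In the sleep deprivation comparison the count of 1 lower gene became 0 at a fold of 1.5 and 0 without the bin that differed most, which leaves Ndn no bin. In the comparison of methods the 1 higher gene became 0 at a fold of 1.5, 0 with medians and 0 without the bin that differed most. The 1 lower gene became 2 with medians (Ube3a, at 0.829 times, besides Ndn) and 0 without that bin. The cause was not tested beyond the loss of Ndn's only bin. Without the highest bin inside Airn, an alternative added after seeing the data, the part of Igf2r inside minus the part outside turned from 0.63 to -0.052 points in the sleep-deprived library. The next count includes settings that could not exceed the SD or that changed nothing, so it does not measure stability. Among the other single values of genes with more than 1 bin, 282 shifted by no more than the SD and 11 by more. Of these 11, 5 concern Snrpn and come from its division at Snurf or from leaving out flank bins in Snhg14, and the others are body to flank ratios of Magel2, Peg3 and Impact under other flanks. Ndn has no SD, and 9 of its body to flank ratios changed under other flanks.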
